A study of Caenorhabditis elegans with 24 samples.

Results

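The gene him-8 and its paralogues zim-1, zim-2 and zim-3 stand side by side near the middle of chromosome IV of Caenorhabditis elegans, and the stretch that holds them was examined in DamID maps of the nuclear envelope protein emerin (EMR-1). The members are the 10 bins of 10 kb at IV:10500001-10600000 in the ce11 genome, out of 10028 nuclear bins of that size used here. The 100 kb bin over the same interval and its 3 neighbours on each side, out of 1005 nuclear bins, were added. The 100 kb bin was singled out because its Dam-EMR over GFP-Dam ratio, averaged over strains, was the lowest among bins whose ratio was below the median bin in every pair of libraries. That ratio is therefore described for the members and not tested.

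HIM-8, ZIM-1, ZIM-2 and ZIM-3 are C2H2 zinc finger proteins of meiotic germ cells. Each binds the pairing centre near an end of its own chromosomes (HIM-8 that of X, ZIM-1 those of II and III, ZIM-2 that of V, ZIM-3 those of I and IV), recruits the kinases CHK-2 and PLK-2, and joins the chromosome to the SUN-1 and ZYG-12 bridge through the nuclear envelope, along which homologues find each other and pair. Loss of HIM-8 causes nondisjunction of X and so a high incidence of males. The maps here come from somatic tissue and concern where the genes lie relative to emerin, not what their proteins do.

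In DamID, the Escherichia coli methylase Dam is fused to a protein of interest, methylates GATC sites close to it, and the methylated fragments are cut with DpnI, amplified and sequenced. Dam-EMR marks chromatin near emerin, an inner nuclear membrane protein. GFP-Dam, free in the nucleus, serves as the measure of accessibility. Both fusions stood behind the uninduced hsp-16.41 heat shock promoter and were switched on by recombination driven by myo-3p::FLP. L3/L4 larvae grown for 26 h at 22.5 °C were used, and 200 ng of DNA was digested for 6 h. The 4 strain backgrounds were GFP::LMN-1(Y59C) with cec-4(ok3124), called Y59C cec-4 below, GFP::LMN-1(Y59C) with intact cec-4, GFP::LMN-1 with cec-4(ok3124), and GFP::LMN-1 with intact cec-4. LMN-1 is the lamin of the worm, Y59C a laminopathy mutation, and CEC-4 a perinuclear chromodomain protein that anchors chromatin with methylated histone H3 lysine 9. All strains thus express a GFP-tagged lamin. Each background had a Dam-EMR and a GFP-Dam group of 3 libraries, which makes 24 libraries in 8 groups and 12 pairs, each of a Dam-EMR and a GFP-Dam library that share strain and round. The strains of a round were grown in parallel.

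The design text names the intestine as the tissue, but body wall muscle is the tissue in the sample labels, and myo-3 encodes a myosin of that muscle. In GFP-Dam libraries, 9 of 10 bins holding body wall muscle markers lay above the median 10 kb bin, with a median level of 16.8 times the median bin. For intestine markers the figures were 7 of 10 bins and 1.42 times, and for germline markers 8 of 10 bins and 1.89 times. Reads per bin are not expression, and in larval lysates a larger number of recombined cells and more methylation per cell cannot be told apart. Nuclear reads per library ran from 35370 to 6936077 in Dam-EMR (median 1746650) and from 2728741 to 19442775 in GFP-Dam (median 8283282). The shallowest library was the Dam-EMR one of Y59C in round 3.

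The 4 genes fill 16889 bp of the interval. On IV, zim-1 runs from 10547086 to 10555513, zim-2 from 10555649 to 10558225, zim-3 from 10558715 to 10561429 and him-8 from 10561905 to 10563974. They occupy the fifth, sixth and seventh bins of 10 kb. The first bin, IV:10500001-10510000, holds 1600 bp of tax-6, the calcineurin catalytic subunit, together with the noncoding RNA genes C02F4.9, C02F4.10 and C02F4.11 and the antisense RNA gene C02F4.12. It holds the midpoint of 0 protein-coding genes. Between the end of tax-6 and the start of zim-1 lie 45.5 kb, with C02F4.4, the calmodulin-like gene cal-4, C02F4.5, the genes T07G12.2 to T07G12.4 and svct-1. Beyond him-8 follow the ephrin gene efn-2, the ligand-gated channel gene lgc-43, the acyltransferase family gene oac-8, the Na+/K+-ATPase beta subunit gene nkb-2 and nssp-47. The 100 kb bin holds 19 protein-coding genes by midpoint, equal to the median of 19 over all 100 kb bins.

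The 100 kb bin had fewer Dam-EMR reads than its GFP-Dam level in each pair. The ratio is given here as log2 of Dam-EMR over GFP-Dam, with each library scaled to its nuclear total, 1 read added and the median nuclear bin of the pair set to 0 (centred log2 ratio). In Y59C cec-4, the bin held 90, 2629 and 3661 Dam-EMR reads in rounds 1 to 3, against 16281, 4111 and 4881 GFP-Dam reads, which gave centred log2 ratios of -1.02, -1.01 and -0.19. In Y59C, it held 179, 2474 and 34 Dam-EMR reads, against 15027, 8771 and 12038 GFP-Dam reads, with ratios of -1.62, -0.59 and -0.27. All of these lie below 0, the values of round 3 least so. In GFP::LMN-1 with cec-4(ok3124), there were 304, 2244 and 5077 Dam-EMR reads, against 17660, 5705 and 9839 GFP-Dam reads, with ratios of -1.07, -1.07 and -0.72. In GFP::LMN-1 with intact cec-4, there were 596, 353 and 2838 Dam-EMR reads, against 17070, 4486 and 9535 GFP-Dam reads, with ratios of -0.57, -1.33 and -0.45. The ranges of the 4 strains overlap.

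Over the 12 pairs the centred log2 ratio averaged -0.83 ± 0.43 (SD), and without the shallow Y59C pair of round 3 it averaged -0.88 ± 0.42 (SD, n = 11). By round, the mean over the 4 strains was lowest in round 1, at -1.07, and highest in round 3, at -0.41. In terms of level, the bin stood at 0.45 to 2.06 times the median 100 kb bin in Dam-EMR libraries and at 1.36 to 2.41 times in GFP-Dam libraries. GFP-Dam reads, the denominator of the ratio that chose the bin, were thus above the median bin in every library. The same held for the neighbours from 10200001, 10300001, 10600001 and 10800001, with lowest levels of 1.17, 1.19, 1.31 and 1.42 times. Their mean centred log2 ratios were -0.037, -0.078, -0.006 and 0.057 (n = 12). The neighbours from 10400001 and 10700001 had lowest GFP-Dam levels of 0.78 and 0.33 times.

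The edgeR fit to all libraries put the ratio averaged over strains at -0.76 on the log2 scale (SE 0.19), rank 1 from the lowest of 1004 bins tested, of which 2.49% were called lower and 6.87% higher. Nothing is read from those shares, since the bin was chosen on that contrast. Of 1005 nuclear bins, 11 (1.09%) were below their pair's median in all 12 pairs. The next lowest of these lay on X and had fitted ratios of -0.51 (from 15000001), -0.50 (from 7800001) and -0.49 (from 16300001). Bins at similar values that missed the condition of all 12 pairs were I from 15000001 at -0.75 (SE 0.61), V from 10600001 at -0.72 (SE 0.15) and IV from 16100001 at -0.70 (SE 0.18), each below the median in 10 of 12 pairs. In the authors' deposited table of 100 kb log2 ratios, the bin stands at -0.38 in Y59C cec-4, -0.72 in Y59C, -0.98 in GFP::LMN-1 with cec-4(ok3124) and -0.72 in GFP::LMN-1 with intact cec-4. Those are the 2.89, 4.08, 0.1 and 0.6 percentiles of that table's nuclear bins. The heading for GFP::LMN-1 with cec-4(ok3124) repeats its Dam-EMR strain in place of the GFP-Dam strain. Its values were read as Dam-EMR over GFP-Dam because they match that ratio. The authors' deposited table is not centred, and its median nuclear bin is at 0.24 in Y59C cec-4, -0.010 in Y59C, 0.0005 in GFP::LMN-1 with cec-4(ok3124) and 0.031 in GFP::LMN-1 with intact cec-4.

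Within the 100 kb, the reads were concentrated in the first 10 kb and not at the zinc finger genes. The first bin supplied 46.7% to 82.3% (median 71.0%) of the 100 kb bin's Dam-EMR reads and 71.2% to 84.8% (median 77.4%) of its GFP-Dam reads. The 3 bins that hold him-8 and the zim genes supplied 4.53% to 23.3% (median 8.18%) of Dam-EMR reads and 3.87% to 6.59% (median 5.34%) of GFP-Dam reads. In the shallowest library, 25 of 34 reads fell in the first bin (73.5%, exact Clopper-Pearson 95% interval 55.6% to 87.1%). PCR copies were not told apart by molecular identifiers, so such intervals cover counting error only. The value of the 100 kb bin is therefore mostly the value of its first bin.

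That bin had among the highest read counts of the genome in both maps. It stood at 5.34 to 44.96 times the median 10 kb bin in Dam-EMR libraries and at 21.8 to 41.6 times in GFP-Dam libraries, which placed it at rank 226 and at rank 69 of 10028 bins by mean level. The adjacent bin to the left, which holds most of tax-6, had medians of 13.5 times the median bin in Dam-EMR and 10.0 times in GFP-Dam. The 3 gene bins were ordinary or low by comparison. Their median levels over libraries were 0.38, 0.76 and 0.74 times the median 10 kb bin in Dam-EMR and 0.64, 0.64 and 0.94 times in GFP-Dam, in order along the chromosome.

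**Figure D1:**
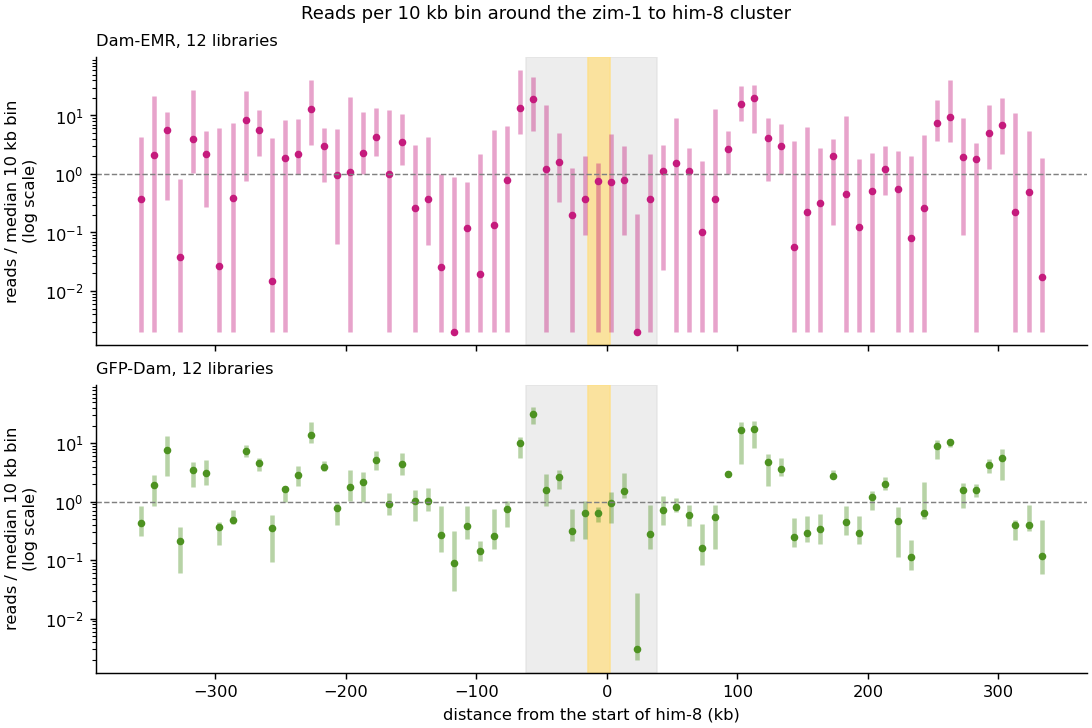
Reads per 10 kb bin divided by the library's median 10 kb bin (log scale) against distance from the start of him-8 in kb, for 12 Dam-EMR libraries (top) and 12 GFP-Dam libraries (bottom). Points are medians and bars run from the lowest to the highest library, with empty bins drawn at the lower edge; grey marks the 100 kb bin and yellow the span from zim-1 to him-8. The first bin of the grey span stands far above the gene bins in both maps, with values up to 44.96 in Dam-EMR and 41.6 in GFP-Dam.

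Most reads of the 100 kb bin thus came from its first bin, except the Dam-EMR reads of Y59C cec-4 in round 1 (46.7%). On the scale of the 100 kb bins, the ratio there was below 0 in every pair. In Y59C cec-4, the first bin held 42, 1975 and 3012 Dam-EMR reads, against 12686, 3165 and 3799 GFP-Dam reads, with centred log2 ratios of -1.74, -1.04 and -0.11 on the scale of the 100 kb bins. In Y59C, it held 109, 1426 and 25 Dam-EMR reads, against 10703, 7442 and 9178 GFP-Dam reads, with ratios of -1.84, -1.14 and -0.31. In GFP::LMN-1 with cec-4(ok3124), the ratios were -1.55, -1.11 and -0.82, from 155, 1836 and 3750 Dam-EMR reads and 12608, 4821 and 7809 GFP-Dam reads. All 9 of these pairs were below 0. In GFP::LMN-1 with intact cec-4, the ratios were -0.74, -1.57 and -0.43, from 392, 242 and 2170 Dam-EMR reads and 12649, 3634 and 7200 GFP-Dam reads. The first bin was below 0 in 12 of 12 pairs, with a mean of -1.04 ± 0.57 (SD), and of -1.10 ± 0.55 (SD, n = 11) without the shallow pair.

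The 30 kb that hold the 4 genes had ratios on both sides of 0. In Y59C cec-4, they held 21, 233 and 276 Dam-EMR reads, against 819, 257 and 203 GFP-Dam reads, with centred log2 ratios of 1.24, -0.51 and 0.67. In Y59C, they held 11, 123 and 3 Dam-EMR reads, against 944, 408 and 660 GFP-Dam reads, with ratios of -1.53, -0.48 and 0.78. In GFP::LMN-1 with cec-4(ok3124), the ratios were -0.40, -0.83 and -0.37, from 31, 102 and 325 Dam-EMR reads and 1164, 221 and 495 GFP-Dam reads. That strain is the one with all 3 rounds on the same side of 0. In GFP::LMN-1 with intact cec-4, the ratios were 0.68, -1.45 and 0.41, from 81, 16 and 320 Dam-EMR reads and 982, 233 and 594 GFP-Dam reads.

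Over all pairs the 30 kb averaged -0.15 ± 0.90 (SD, n = 12), with 7 pairs below and 5 above 0, and -0.23 ± 0.89 (SD, n = 11) without the shallow pair. The mean is smaller than the spread between pairs. The other 90 kb of the bin, genes included, averaged -0.35 ± 0.56 (SD, n = 12), with 10 pairs below 0. The first bin was lower than the 30 kb in 12 of 12 pairs, by -0.89 ± 0.77 on average (SD), with a range from -2.98 to -0.12. Fitted over all libraries, the averaged log2 ratios were -0.92 (SE 0.24) for the first bin, -0.31 (SE 0.18) for the other 90 kb and -0.17 (SE 0.27) for the 30 kb of the genes. These are values of the contrast that chose the bin, and the way of dividing it was chosen after they were seen.

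**Figure D2:**
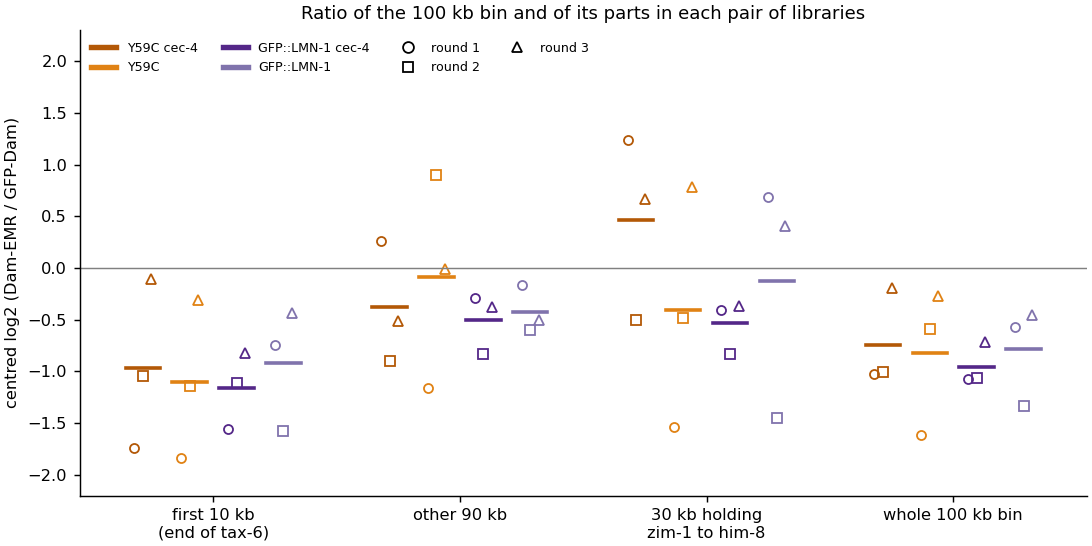
Centred log2 ratio of Dam-EMR over GFP-Dam in each pair for the first 10 kb, the other 90 kb, the 30 kb that hold zim-1 to him-8, and the whole 100 kb bin. Colours are strains, symbols are rounds and horizontal lines are strain means (n = 3). On the scale of the 100 kb bins, all 12 pairs of the first 10 kb lie below 0, while those of the gene-bearing 30 kb run from -1.53 to 1.24.

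At 10 kb resolution the read counts set how well each gene's bin could be placed. Centred here on the median 10 kb bin, the first bin averaged -0.85 ± 0.67 (SD, n = 12) and was below 0 in 11 pairs, which was the 13.1 percentile of 10 kb bins. The first bin was thus not the lowest of all 10 kb bins. Many of those hold few reads, with 1.32% to 42.5% of them empty in a Dam-EMR library. The edgeR fit placed it at -0.77 (SE 0.28). Among the 101 bins in the top 1% of GFP-Dam level, the median fitted ratio was 0.035, 45 were below 0, and the bin itself was the 1 at or below its own value. The same contrast chose the 100 kb bin, whose value is mostly that of this bin, so nothing is read from that standing.

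The fifth bin, with svct-1 and the start of zim-1 by coordinate, had a fitted log2 ratio of -0.32 (SE 0.49), from 1 to 139 Dam-EMR reads and 25 to 431 GFP-Dam reads per library. The sixth, with most of zim-1 and with zim-2, had 0.038 (SE 0.52), from 0 to 101 Dam-EMR reads and 49 to 370 GFP-Dam reads. The seventh, with zim-3 and him-8, had -0.21 (SE 0.45), from 0 to 264 Dam-EMR reads and 73 to 412 GFP-Dam reads. Each of these values is smaller than its SE, and the pairs above and below 0 numbered 6 and 6, 7 and 5, and 6 and 6.

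The other member bins spread more widely. The bin of efn-2 had a fitted ratio of -1.16 (SE 0.41) and that of cal-4 -0.80 (SE 0.32), both lower than that of the first bin, and they were below 0 in 10 and 9 of 12 pairs. The bin with nkb-2 and nssp-47 had 1.06 (SE 0.63), and those of C02F4.4 and of T07G12.2 to T07G12.4 had 0.12 (SE 0.47) and 0.053 (SE 0.70). The bin with oac-8 and part of lgc-43 did not pass the filter on low counts, with 0 to 24 Dam-EMR reads (0 in 9 of 12 libraries) and 0 to 8 GFP-Dam reads (0 in 5 of 12). It is the 1 of the 10 bins that failed, and no fitted fold is given for it. The median fitted ratio of the 9 bins tested was -0.21, against -0.066 for all 9735 bins of 10 kb tested.

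**Figure D3:**
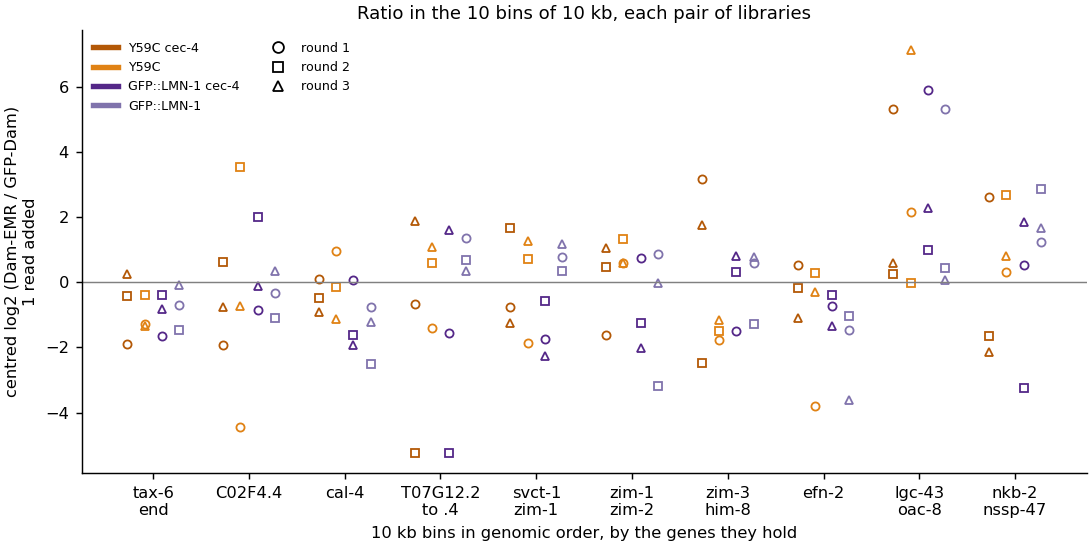
Centred log2 ratio of Dam-EMR over GFP-Dam, with 1 read added, in each of the 10 bins of 10 kb in genomic order, labelled by genes they hold. Colours are strains and symbols are rounds. Values in the first bin lie between -1.90 and 0.25, and those in the bin of zim-3 and him-8 between -2.48 and 3.17; the bin of lgc-43 and oac-8 is nearly empty of reads.

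The neighbouring 100 kb bins were chosen by position alone, so their averaged ratio could be tested. None of the 6 was called at an adjusted p under 0.05 with edgeR's quasi-likelihood test and Benjamini-Hochberg adjustment over 1004 bins, of which 94 were called (9.36%). None had an unadjusted p under 0.05, and DESeq2 called 0 of the 6. From left to right the fitted log2 ratios of the 3 bins before the cluster were 0.020 (SE 0.14), -0.041 (SE 0.13) and 0.18 (SE 0.16), and those of the 3 after it were -0.038 (SE 0.16), -0.15 (SE 0.33) and 0.088 (SE 0.11). Adjusted p-values from edgeR ran from 0.508 to 0.950. The bin immediately to the left, which ends within tax-6, had a mean centred log2 ratio of 0.089 ± 0.60 (SD, n = 12). The second bin to the right was low in reads, at 0.068 to 0.98 times the median bin in Dam-EMR and 0.33 to 0.50 times in GFP-Dam, and its pairs spread from -2.54 to 1.49. Its mean centred log2 ratio was -0.44 ± 1.29 (SD, n = 12), with 8 of 12 pairs below 0, the 3.38 percentile of 100 kb bins. A difference between that bin and the cluster bin was not tested.

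**Figure D4:**
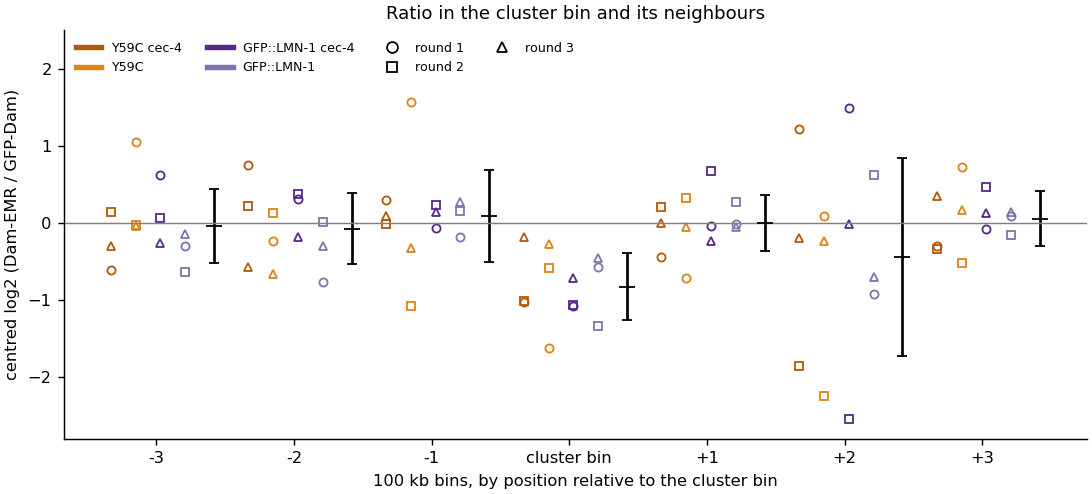
Centred log2 ratio of Dam-EMR over GFP-Dam in each pair for the cluster's 100 kb bin and 3 bins on each side. Colours are strains, symbols are rounds, and black bars are the mean ± SD of 12 pairs. The cluster bin has all 12 pairs below 0 with a mean of -0.83, while the 6 neighbours have means between -0.44 and 0.089.

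The ratio was next compared between the lamin and cec-4 states. The bin was chosen on the average over strains, but also for a ratio below the median bin in every pair. A bin that a strain raised above the median could not have been chosen. The choice therefore did not leave these comparisons fully free. The strain means of the centred log2 ratio were -0.74 ± 0.48 in Y59C cec-4, -0.83 ± 0.70 in Y59C, -0.95 ± 0.20 in GFP::LMN-1 with cec-4(ok3124) and -0.78 ± 0.48 in GFP::LMN-1 with intact cec-4 (SD, n = 3 each). They lie closer together than the rounds of any strain do. In an exact two-sided permutation test, the 6 Y59C pairs averaged -0.78 ± 0.54 and the 6 GFP::LMN-1 pairs -0.87 ± 0.34 (SD), a difference of 0.086 (p = 0.738, adjusted p = 0.868 over 2 comparisons). Within rounds 1 to 3 that difference was -0.50, 0.40 and 0.35, so it did not keep its sign. The 6 cec-4(ok3124) pairs averaged -0.85 ± 0.35 and the 6 pairs with intact cec-4 -0.81 ± 0.54, a difference of -0.041 (exact p = 0.868, adjusted p = 0.868), with 0.047, -0.078 and -0.091 within rounds. These tests shuffled pairs across rounds. With rounds kept as blocks, the exact permutation p was 0.781 for lamin and 0.844 for cec-4.

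The edgeR fit gave differences in the log2 ratio of 0.082 (SE 0.54, adjusted p = 0.989) for Y59C cec-4 minus Y59C, 0.13 (SE 0.53, adjusted p = 0.992) for Y59C cec-4 minus GFP::LMN-1, 0.047 (SE 0.54, adjusted p = 0.997) for Y59C minus GFP::LMN-1 and -0.17 (SE 0.53, adjusted p = 1.00) for GFP::LMN-1 with cec-4(ok3124) minus GFP::LMN-1. The interaction of lamin and cec-4 was 0.25 (SE 0.75, adjusted p = 0.997). This main fit had no term for round. With rounds as a block, the SE for Y59C minus GFP::LMN-1 was 0.39. With SEs of 0.53 to 0.75 and adjustment over 1004 bins, differences of 1 on the log2 scale, and others well above it, could have been missed. In these 5 contrasts, 0 of 1004 bins (0.0%) were called, with 50, 17, 37, 10 and 24 at an unadjusted p under 0.05 in the order given, and DESeq2 called 0 as well. The bin was thus like every other 100 kb bin in showing no called difference.

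GFP-Dam reads at the cluster differed even less between strains. The log2 differences were 0.019 for Y59C cec-4 minus Y59C, 0.025 for Y59C cec-4 minus GFP::LMN-1, 0.0065 for Y59C minus GFP::LMN-1 and 0.0021 for GFP::LMN-1 with cec-4(ok3124) minus GFP::LMN-1, each with an SE of 0.37. Their adjusted p-values from edgeR were all above 0.99. Here too 0 of 1004 bins (0.0%) were called, with 1, 1, 0 and 1 at an unadjusted p under 0.05, and 0 by DESeq2.

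Splitting the bin changed the picture of its strain differences in size but not in calls. For the 30 kb of the zinc finger genes, the log2 ratio differed by 1.13 (SE 0.79, edgeR adjusted p = 0.989) for Y59C cec-4 minus Y59C, by 0.36 (SE 0.74, adjusted p = 0.992) for Y59C cec-4 minus GFP::LMN-1, by -0.77 (SE 0.78, adjusted p = 0.997) for Y59C minus GFP::LMN-1 and by -0.63 (SE 0.73, adjusted p = 1.00) for GFP::LMN-1 with cec-4(ok3124) minus GFP::LMN-1. For the first bin of 10 kb the same differences were 0.36 (SE 0.67), 0.18 (SE 0.65), -0.18 (SE 0.67) and -0.19 (SE 0.65). Each of the first bin's differences is smaller than its SE.

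**Figure D5:**
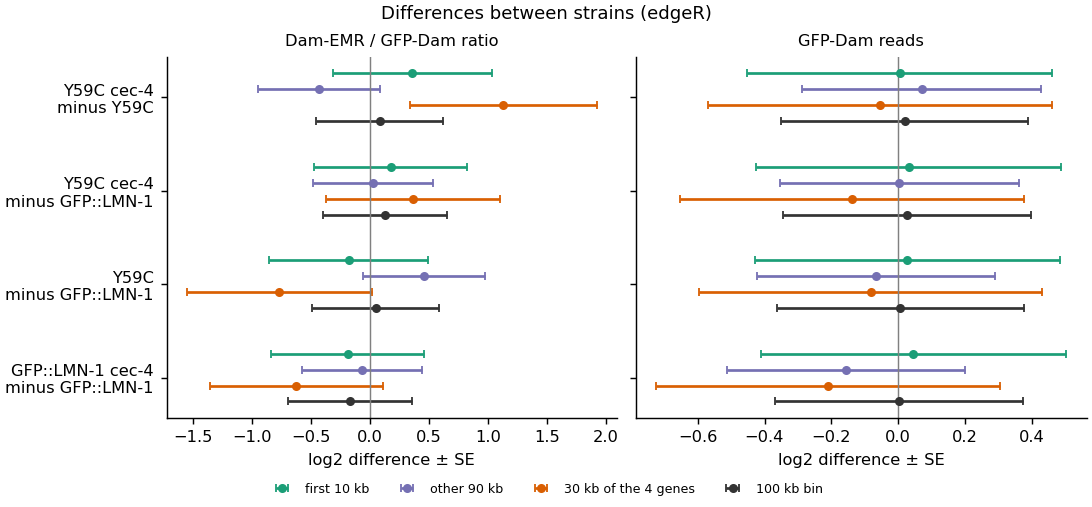
Differences between strains (edgeR log2 difference ± SE) in the Dam-EMR over GFP-Dam ratio (left) and in GFP-Dam reads (right), for the whole 100 kb bin and its parts. The ratio of the gene-bearing 30 kb has the widest spread of differences, from -0.77 to 1.13, and those of the 100 kb bin lie between -0.17 and 0.13.

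Among the 9 member bins of 10 kb tested, 0 were called in any contrast between strains. The share called over all 9735 bins was 0.0205% for Y59C minus GFP::LMN-1 (2 bins) and 0.0% for the other ratio contrasts and for GFP-Dam reads. At an unadjusted p under 0.05 there was 1 member bin in Y59C cec-4 minus Y59C and 1 in the interaction, where 1320 and 871 of all 9735 bins were past that level, and 0 in the other ratio contrasts. DESeq2, which called 328 bins for Y59C cec-4 minus Y59C, 21 for Y59C cec-4 minus GFP::LMN-1, 117 for Y59C minus GFP::LMN-1 and 58 for the interaction, called 0 of the member bins.

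The member bin with the largest difference was that of zim-3 and him-8, for Y59C cec-4 minus Y59C. Its Dam-EMR reads were 19, 18 and 166 in Y59C cec-4, against 2, 18 and 0 in Y59C, and its GFP-Dam reads were 175, 126 and 73 in Y59C cec-4, against 412, 211 and 305 in Y59C. The centred log2 ratios were 3.17, -2.48 and 1.76 in Y59C cec-4 and -1.78, -1.50 and -1.15 in Y59C, so the strains overlapped through round 2. The fitted difference was 3.87 (SE 1.38, edgeR adjusted p = 0.194, and 0.0655 with DESeq2). Leaving out 1 round gave 2.60 to 5.39 with edgeR adjusted p-values of 0.162 to 0.584, the lowest difference being that without round 1. Without the Y59C pair of round 3, which had 0 Dam-EMR reads there, it was 3.75 (adjusted p = 0.246).

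Other meiotic genes were looked up in the 10 kb bin of their midpoint, using lists chosen with earlier results of these data known. All 48 genes in 4 lists were matched, and 45 bins were tested for the averaged ratio. With edgeR, 0 were higher and 1 was lower, where 1.29% and 1.8% of all 10 kb bins were called (3.09% in either direction), and 0 were called in any contrast between strains. The number called is near the background.

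Among partners of the pairing proteins at the nuclear envelope the median fitted log2 ratio was 0.18. The bin called lower is that of chk-2, the kinase that starts pairing, at -4.75 (SE 0.88, edgeR adjusted p = 0.00722), with 1 of 12 pairs above 0. It had few reads, with 0 or 1 per Dam-EMR library and 4 over all 12, against 7 to 130 per GFP-Dam library, so the size of the fitted fold is no bound. The call was lost without round 2, at -4.48 (adjusted p = 0.0653), and without round 3, at -4.32 (adjusted p = 0.129), with fitted values about as large. The envelope bridge gene sun-1 had 0.97 (SE 0.71) and pch-2, a synapsis checkpoint ATPase, -0.45 (SE 0.52), neither called. For sun-1 the mean centred ratio of the pairs had the other sign, at -0.12, with 6 of 12 pairs above 0.

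For chromosome axis and cohesin genes the median was 0.43, with the axis genes him-3 at 0.90 (SE 0.60) and htp-1 at 0.74 (SE 0.25) and the cohesion protector gene lab-1 at -0.72 (SE 0.56). At him-3, the mean centred ratio of the pairs was only 0.19, with 6 of 12 pairs above 0. For the synaptonemal complex, which holds paired homologues together, the median was 0.047, with syp-5 at 0.58 (SE 0.82), syp-2 at -0.41 (SE 0.41) and the regulator cra-1 at 0.26 (SE 0.26). The mean centred ratio of syp-5 had the other sign, at -1.37, with 4 of 12 pairs above 0. For double-strand break and crossover genes the median was -0.34, with rec-1 at -1.24 (SE 0.68), the crossover ligase family gene zhp-2 at 0.99 (SE 0.46) and msh-5, a crossover-promoting MutS homologue, at -0.80 (SE 0.61). The mean centred ratio of rec-1 was -0.083, with 6 of 12 pairs above 0. None of these was called, and the list medians lay on both sides of that of all 10 kb bins, -0.066.

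The 3 bins of 100 kb whose centred ratio varied most like that of the cluster bin over the 12 pairs were on I from 3700001 (Pearson r = 0.844; inx-13, math-46, inx-12), on III from 4700001 (r = 0.837; col-89, rpsa-1, rbg-3) and on X from 11000001 (r = 0.836; clc-1, lpr-3, lpr-6). Their fitted average ratios were 0.025, -0.014 and -0.23. The points share libraries, rounds and depth, so these correlations are descriptions. The 100 kb bin and its own first 10 kb bin, each centred at its own bin size, had r = 0.537 over the 12 pairs.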

How the data were processed

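The authors deposited mapped reads per 100 kb and 10 kb bin as raw counts for each library, on the build ce11 per the submitters' processing notes. They also deposited log2 ratios of Dam-EMR over GFP-Dam per strain, and those at 100 kb equal the log2 of the mean of 3 replicate ratios. Which aligner made them is not given in the sources used here. Counts were tested with the quasi-likelihood test of edgeR 4.0.16 (filterByExpr, TMM factors, all 8 groups in R 4.3.3), which was checked on simulated data, with DESeq2 1.42.0 beside it. A Benjamini-Hochberg adjusted p under 0.05 over all bins of a size was called. The mitochondrial bins and 2 bins of 10 kb with the value 1 in every library were left out. Genes came from the RefSeq annotation of WBcel235, the same assembly as ce11. All genes with a named symbol in the interval, the most alike bins and up to 3 genes per list by size of ratio are named. Members and lists were chosen with earlier results of these data known.

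The design text calls the rounds biological replicas and has every strain grown side by side in each, so numbers pair samples. Deviations from group means correlated with a median r of 0.22 (-0.243 to 0.575) within rounds in Dam-EMR and 0.635 (0.446 to 0.843) in GFP-Dam. Alternatives covered scaling, filter, tool, block, pseudocount, rounds and libraries left out. GATC sites and protein sequences were not analysed here.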

Additional observations from a re-analysis of the deposited data

Results flagged for a closer look

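In groups of 6 pairs sharing a lamin or a cec-4 state, 1 pair stood apart from the other 5 in 6 of 44 groups examined. The groups overlap, and chance flags about 1 in 20. All 6 cases are single 10 kb bins with few Dam-EMR reads. Their part in the result was not tested.

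In the bin of T07G12.2 to T07G12.4, Y59C of round 1 (0 Dam-EMR and 105 GFP-Dam reads) had a centred log2 ratio of -1.41, below the other pairs with intact cec-4. In the bin of svct-1 and zim-1, the same pair (1 and 292 reads) had -1.87, again below the others with intact cec-4. In the bin of zim-1 and zim-2, Y59C cec-4 of round 1 (0 and 240 reads) had -1.61, below the other Y59C lamin pairs. In the same bin, GFP::LMN-1 of round 2 (0 and 49 reads) had -3.20, below the other pairs with intact cec-4. In the bin of efn-2, Y59C of round 1 (1 and 1114 reads) had -3.80, below the other Y59C lamin pairs. In that bin GFP::LMN-1 of round 3 (14 and 579 reads) had -3.63, below the other pairs with wild-type lamin.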

How the results depend on the processing

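Of 230 values recomputed under alternatives, 195 kept their direction and their side of the threshold, 32 changed sign and 3 moved. Every sign change was in a strain difference not called in any setting, with adjusted p at or above 0.693. The cause was not tested. In the contrasts between strains no member bin of 10 kb was called under any alternative fit, nor was a neighbouring bin in the averaged ratio. The members' averaged ratio at 10 kb under the alternatives is not given here.

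The mean centred ratio of -0.83 became -0.11 as the mean of the 10 kb bins, -0.35 for the other 90 kb and -0.15 for the 30 kb of the 4 genes (the last pair added after seeing the data). The -0.11 weighs all 10 bins alike. Among them is the nearly empty bin with oac-8 and part of lgc-43, which failed the filter and averaged 2.53 with 1 read added. The mean without that bin was not computed.

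With the replicate block, the ratio difference Y59C minus GFP::LMN-1 was -0.028 (SE 0.39, against 0.54 in the main fit). GFP-Dam differences were -0.0022 for Y59C and -0.019 for GFP::LMN-1 with cec-4(ok3124), each minus GFP::LMN-1. The block changed no other sign for the 100 kb bin and no call. In the first 10 kb, it took the ratio difference Y59C cec-4 minus GFP::LMN-1 from 0.18 to -0.0056.

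Leaving out 1 round gave ratio differences of -0.096 to 0.49 for Y59C cec-4 minus Y59C, -0.063 to 0.32 for Y59C cec-4 minus GFP::LMN-1, -0.45 to 0.40 for Y59C minus GFP::LMN-1 and -0.030 to 0.82 for the interaction. GFP-Dam differences ran from -0.075 to 0.16, -0.077 to 0.15 and -0.0060 to 0.030 for the first 3 of these and from -0.068 to 0.062 for GFP::LMN-1 with cec-4(ok3124) minus GFP::LMN-1. The lamin difference of the centred ratio ran from -0.073 to 0.38 and the cec-4 difference from -0.085 to -0.016.

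Without the Y59C pair of round 3, Y59C minus GFP::LMN-1 was -0.14 for the ratio and -0.028 for GFP-Dam, and the centred lamin and cec-4 differences were -0.016 and 0.066. With library totals alone, GFP-Dam differences were -0.15 for Y59C cec-4 minus Y59C, and -0.26, -0.12 and -0.043 for Y59C cec-4, Y59C and GFP::LMN-1 with cec-4(ok3124), each minus GFP::LMN-1. Not centred, the cec-4 difference was 0.0093. In parts added after seeing the data, Y59C minus GFP::LMN-1 was -0.18 in the first 10 kb and -0.77 in the gene bins, Y59C cec-4 minus Y59C and the interaction were -0.43 and -0.36 without the first 10 kb, and the centred cec-4 difference was 0.23 in the 30 kb of the genes.

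Dam-EMR depth limits the 10 kb values: the gene bins held 3 reads in the shallowest library.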
